A study of Mus musculus with 6 samples.

Results

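Aminoacyl-tRNA synthetases are the enzymes that join each amino acid to its own tRNA, so that the ribosome can read the genetic code. Genes were taken as synthetases by their names in the deposited gene table (a letter for the amino acid followed by ars or prs) together with a description naming an aminoacyl-tRNA synthetase, and no measured value was used in the choice. This gave 38 protein-coding genes of the 54532 genes listed, 21 for enzymes of the cytosol and 17 for enzymes of the mitochondrion, all of which have symbols ending in 2. Tarsl2, a threonyl-tRNA synthetase whose description does not mention mitochondria, was counted with the cytosolic genes.

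The series measured gene expression by RNA sequencing in N2a cells, a mouse neuroblastoma line whose strain the labels give as C57BL/6. There were 3 libraries from cells transfected with si-NC, a control siRNA, and 3 from cells transfected with si-circRtn4, an siRNA against circRtn4, which is a circular RNA made from exons of the Rtn4 gene. All 6 libraries came from this single line in MEM with fetal bovine serum, and the labels name no other agent, time or dose. The study's general methods describe N2a cells being switched, after siRNA transfection, to a low-serum medium with retinoic acid that drives differentiation, and do not say whether this held for the sequenced libraries. The labels do not say whether the libraries of a group came from separate cultures, so p-values measure the spread between these libraries, which may be technical.

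Levels are FPKM, the fragments of a gene scaled to its length and to the library's depth. The si-NC libraries are called control and the si-circRtn4 libraries knockdown below. Reads recovered from the FPKM values numbered from 13541198 to 15122063 per library, and the 38 genes had from 80 to 22073 reads each per library. Rtn4 itself stood at 61.0, 66.8 and 69.8 FPKM in the control libraries and at 50.1, 56.7 and 62.7 FPKM after knockdown, a sum of linear and circular RNA from which the level of circRtn4 cannot be read. Of 13 markers of sympathetic neuroblasts, 12 reached 1 FPKM in at least 1 library. Their summed level ranged from 2909 to 3213 FPKM with si-NC and from 1447 to 1953 FPKM with si-circRtn4, and its part in the synthetase values was not tested. Chgb, a secretory granule protein, accounted for most of that difference, at 1167 to 1462 FPKM with si-NC and 298 to 478 FPKM with si-circRtn4. The list did not move as one, since Hand2, Stmn2 and Gata3 overlapped between the groups and Mycn was higher in each knockdown library (18.5 to 27.6 FPKM) than in any control library (12.6 to 15.9 FPKM). In such bulk samples fewer cells of a type and less RNA per cell cannot be told apart. Markers of fibroblasts, astrocytes, microglia and endothelium each summed to under 1 FPKM, with Aqp4 at 0 throughout. Oligodendrocyte markers, mainly Mbp, summed to 3.82 to 5.68 FPKM.

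Each synthetase first activates its amino acid with ATP and then transfers it to the tRNA, and many of them hydrolyse wrongly charged tRNA. The enzymes form a pair of unrelated structural families, class I and class II. In animal cells several cytosolic enzymes sit together in the multisynthetase complex, held by the scaffold proteins encoded by Aimp1, Aimp2 and Eef1e1. Mitochondria charge their own tRNAs with separate, nuclear-encoded enzymes, except that Gars and Kars each encode both forms and that glutaminyl-tRNA is made there by misacylation with Ears2 and a later amidation. Uncharged tRNA activates the kinase encoded by Eif2ak4 (GCN2), which raises translation of the transcription factor ATF4, and many cytosolic synthetase genes are known ATF4 targets.

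All 38 genes were above 1 FPKM in every library. The cytosolic genes were the more abundant group, with a median of the mean levels of 44.0 FPKM against 6.64 FPKM for the mitochondrial genes. Gars, which encodes the glycyl-tRNA synthetase of both compartments, was the highest of the 38. Control replicates 1 to 3 held 207, 216 and 255 FPKM and the knockdown replicates 248, 277 and 278 FPKM. The groups overlapped, since si-NC replicate 3 lay above si-circRtn4 replicate 1, while every library of Gars lay above every library of the next gene, Nars, which peaked at 154 FPKM.

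Below Gars the cytosolic genes made a near-continuous series. From Nars (asparagine) through Sars (serine), Wars (tryptophan), Vars (valine), Aars (alanine), Kars (lysine), Lars (leucine), Mars (methionine), Iars (isoleucine), Eprs (glutamate and proline), Yars (tyrosine), Rars (arginine), Tars (threonine), Hars (histidine), Farsb (the beta subunit for phenylalanine) and Dars (aspartate), the 6 libraries of each gene overlapped those of its neighbour in the order. Farsa, the alpha subunit for phenylalanine, came apart below Dars and overlapped Cars (cysteine). Qars (glutamine) lay apart below Cars, and Tarsl2 was the lowest cytosolic gene. Tarsl2 was at 6.99, 8.09 and 8.42 FPKM with si-NC and at 7.49, 7.83 and 8.09 FPKM with si-circRtn4, so the groups overlapped and its mean level of 7.82 FPKM lay among those of the mitochondrial genes.

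Lars2, the mitochondrial leucyl-tRNA synthetase, stood far above the other mitochondrial genes. Control libraries held 125, 133 and 142 FPKM and knockdown libraries 117, 122 and 103 FPKM. Every si-circRtn4 library was below every si-NC library, and the lowest of the 6 was still above the highest value of the next mitochondrial gene, Rars2, at 14.6 FPKM. Lars2 alone made up 50.1% to 56.9% of the summed FPKM of the 17 mitochondrial genes. The levels then ran down through Rars2, Yars2, Tars2, Aars2, Iars2, Hars2, Vars2, Cars2, Sars2 and Ears2 with overlapping ranges, dropped well below Ears2 at Fars2, and ended with Nars2, Mars2, Pars2 and Wars2.

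The genes closest to the limit of 1 FPKM used for testing were Wars2 and Pars2. Wars2, the mitochondrial tryptophanyl-tRNA synthetase, was at 1.43, 1.47 and 1.66 FPKM with si-NC and at 1.48, 1.60 and 1.79 FPKM with si-circRtn4. For Pars2, the mitochondrial prolyl-tRNA synthetase, the values were 1.71, 2.11 and 2.12 FPKM against 2.20, 2.47 and 2.13 FPKM. The groups overlapped for Wars2 and just failed to overlap for Pars2, whose log2 fold change was 0.13 with an adjusted p of 0.503 (limma). No synthetase gene lay outside the limit.

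**Figure D1:**
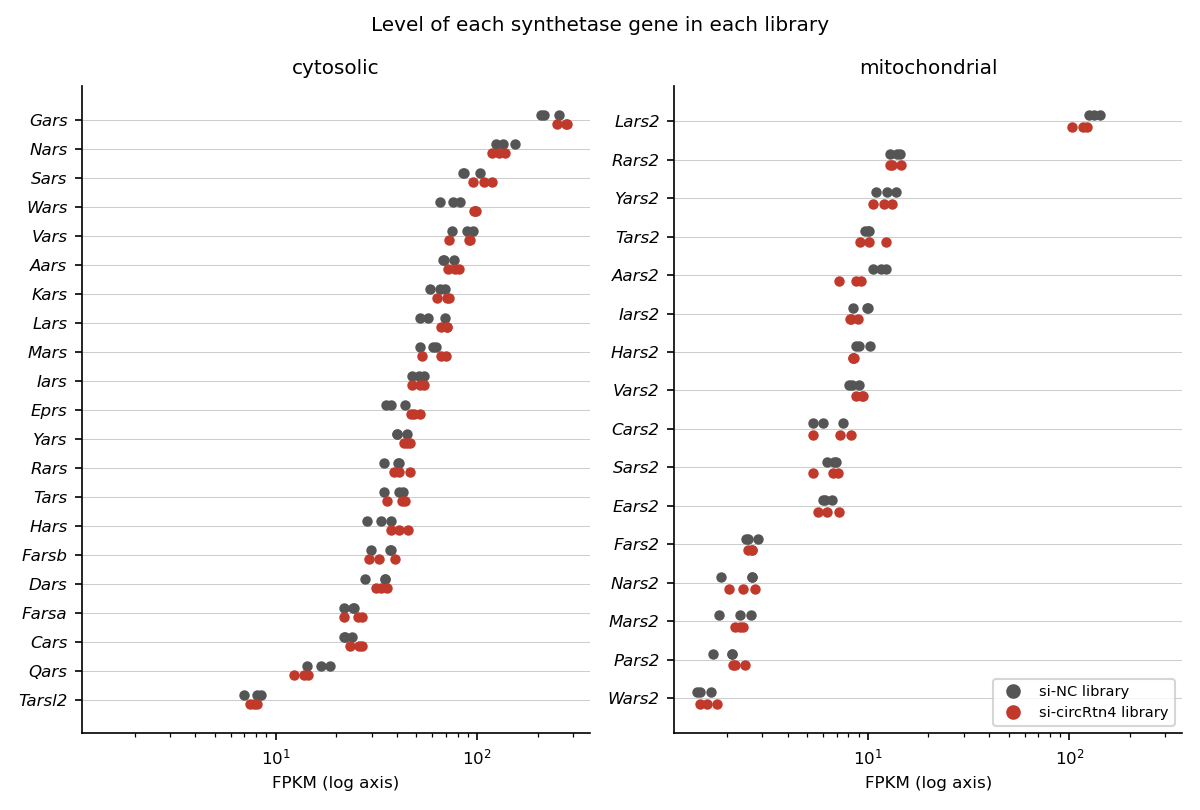
Level of the synthetase genes named in the text in each library, in FPKM on a log axis, with cytosolic genes on the left and mitochondrial genes on the right. Grey points are the 3 si-NC libraries and red points the 3 si-circRtn4 libraries; Gars tops the cytosolic genes, and Lars2 stands apart from the other mitochondrial genes.

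The order of levels depended on the length each gene was given. The deposited length was 0.959 to 3.80 times that of the longest-coding annotated transcript. When FPKM was set on the length of that transcript, Lars2 became the highest of the 38 genes at 352 FPKM, ahead of Gars at 324 FPKM, and Eprs rose from rank 12 to rank 5. The medians became 66.0 FPKM for the cytosolic and 11.6 FPKM for the mitochondrial genes, so the cytosolic group stayed the higher.

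Knockdown of circRtn4 was compared with the control siRNA by limma on log2(FPKM + 1), and a gene was called at a Benjamini-Hochberg adjusted p under 0.05 over all 12749 genes tested. Of the 38 synthetase genes, 1 was called higher in si-circRtn4 (Wars) and 1 lower (Aars2), or 5.26% of them. Across all genes tested, 4.36% were called higher and 4.82% lower, together 9.19%. The share of synthetases rests on Wars and Aars2 alone, and whether it differs from that of all genes was not tested. With TPM, which moved the balance of calls over all genes from 556 higher and 615 lower to 972 higher and 393 lower, 3 synthetase genes were called higher (Wars, Eprs and Hars) and none lower. The cytosolic genes had 16 log2 fold changes above 0 and 5 below, with a median of 0.10, and the mitochondrial genes had 10 above and 7 below, with a median of 0.0072 that turned to -0.0056 under quantile normalization. The median over all genes tested was 0.0020. The cytosolic median was above 0 under every scaling tried, between 0.10 and 0.20, and under TPM, where it was highest, the median of all genes also moved up to 0.090.

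Libraries of the same replicate number deviated together, and the labels do not say what a number marks. The reported fit has no block and so does not pair the libraries. A fit with the number as a block was set beside it. With the block, 6 of the 38 genes were called (15.8%), against 9.29% of all genes higher and 9.75% lower, together 19.0%. Wars, Eprs, Hars and Sars were called higher and Qars and Aars2 lower. These were 5 of the 21 cytosolic genes (23.8%) and 1 of the 17 mitochondrial genes (5.88%). Whether these shares differ was not tested.

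**Figure D2:**
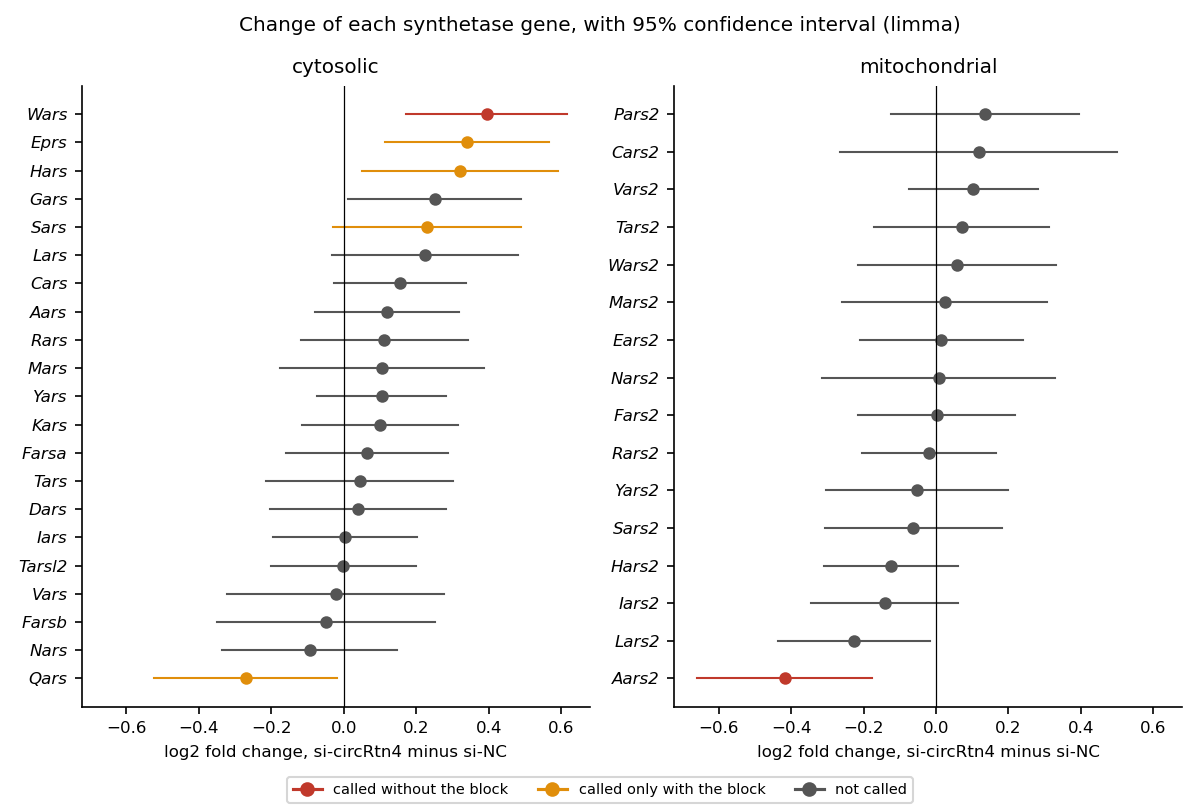
Log2 fold change of the synthetase genes named in the text on the log2(FPKM + 1) scale, si-circRtn4 minus si-NC, with its 95% confidence interval from limma without the block. Red marks genes called without the block (Wars, Aars2), orange those called only with it (Eprs, Hars, Sars, Qars) and grey the remainder, whose intervals include 0 for all but Gars and Lars2.

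Wars encodes the cytosolic tryptophanyl-tRNA synthetase, a class I enzyme outside the multisynthetase complex. Its gene occupies chr12:108860030-108894174 (GRCm38, minus strand). Wars stood at 75.6, 65.3 and 82.5 FPKM in the controls and at 96.5, 98.0 and 98.8 FPKM after knockdown. Every knockdown library was above every control library, and the 3 knockdown values lay close together. The mean was 74.5 ± 8.68 FPKM (SD, n = 3) in controls and 97.7 ± 1.17 FPKM (SD, n = 3) after knockdown. Its log2 fold change was 0.39 (SE 0.095, adjusted p = 0.044 in limma, 0.024 with the block). The call held without si-NC replicate 3 and was lost on leaving out any of the other 5 libraries, with adjusted p from 0.080 to 0.126, and without the filter on low genes (0.108). The log2 fold change stayed between 0.30 and 0.49 under all of these settings. Wars overlaps Wdr25 on the opposite strand by 544 bases, and Wdr25 was at 3.37 to 4.81 FPKM.

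Aars2 encodes the mitochondrial alanyl-tRNA synthetase, a class II enzyme with an editing domain. Its gene occupies chr17:45506841-45520843 on the plus strand. Its levels were 10.6, 12.3 and 11.7 FPKM with si-NC and 7.20, 9.25 and 8.72 FPKM with si-circRtn4. All 3 knockdown libraries were below all 3 control libraries. The control mean was 11.5 ± 0.847 FPKM (SD, n = 3) and the knockdown mean 8.39 ± 1.06 FPKM (SD, n = 3). This was a log2 fold change of -0.42 (SE 0.10, adjusted p = 0.047 in limma, 0.012 with the block). Leaving out any of the 6 libraries ended the call, with adjusted p from 0.058 to 0.154, as did TPM scaling (0.068), quantile normalization (0.0503) and testing without the filter (0.127). The log2 fold change stayed between -0.48 and -0.32 in these fits. Its cytosolic counterpart Aars had a log2 fold change of 0.12 and was not called.

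Eprs encodes a single protein that charges both glutamate and proline tRNAs and belongs to the multisynthetase complex. Its level was 37.3, 35.3 and 43.9 FPKM in the controls and 46.9, 48.7 and 52.2 FPKM after knockdown. The groups did not overlap. The log2 fold change was 0.34 (SE 0.097), with an adjusted p of 0.071 without the block and 0.021 with it. It was also called with TPM (with and without Gm23935), with quantile normalization, with limma-voom on recovered reads, and on leaving out si-NC replicate 3.

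Hars encodes the cytosolic histidyl-tRNA synthetase, the classical target of anti-Jo-1 autoantibodies. It was at 28.3, 33.4 and 37.2 FPKM with si-NC and at 37.5, 45.5 and 40.9 FPKM with si-circRtn4. The groups narrowly failed to overlap. The log2 fold change was 0.32 (SE 0.12), with an adjusted p of 0.133 without the block and 0.039 with it. Hars overlaps Hars2, the mitochondrial enzyme's gene, by 198 bases head to head on opposite strands, and the sources used here do not say whether reads were counted by strand. Hars2 stood at 10.3, 9.04 and 8.73 FPKM against 8.57, 8.41 and 8.44 FPKM. Its groups did not overlap either, in the opposite direction, with a log2 fold change of -0.13 and an adjusted p of 0.376.

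Sars, for the cytosolic seryl-tRNA synthetase, was called only in the blocked fit. Its values were 85.5, 86.5 and 104 FPKM in controls and 95.8, 109 and 119 FPKM after knockdown. The groups overlapped, and each knockdown library was above the control library of the same number. The log2 fold change was 0.23 (SE 0.11), with an adjusted p of 0.246 without the block and 0.0494 with it.

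Qars, for glutaminyl-tRNA synthetase, was the cytosolic gene with the most negative change. It was at 18.6, 14.3 and 16.8 FPKM with si-NC and at 13.9, 12.3 and 14.4 FPKM with si-circRtn4. The groups overlapped only through si-NC replicate 2, and all 3 same-numbered pairs went down. The log2 fold change was -0.27 (SE 0.11), with an adjusted p of 0.166 without the block and 0.041 with it.

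**Figure D3:**
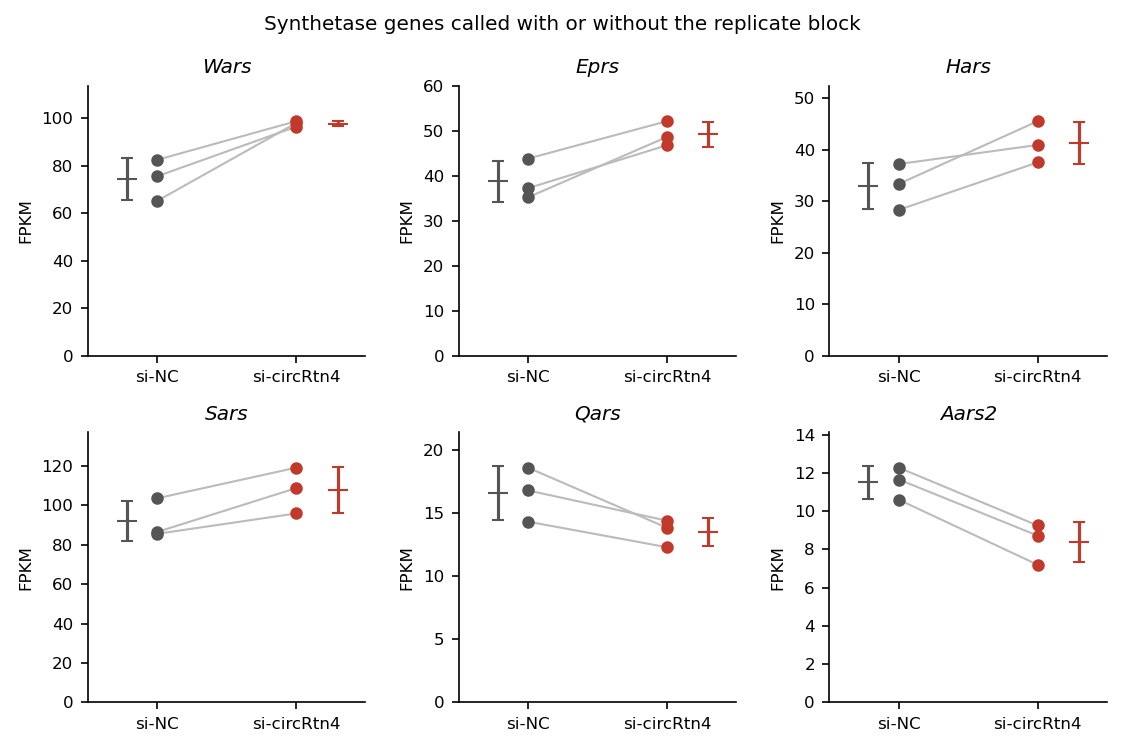
FPKM of the 6 synthetase genes called with or without the replicate block, in si-NC (grey) and si-circRtn4 (red) libraries. Lines join libraries of the same replicate number, and bars beside the points give mean ± SD (n = 3). In every panel all 3 lines run the same way, which choosing genes by the blocked fit favours.

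Apart from these 6 genes, none of the 38 was called in either fit. Lars2 had a log2 fold change of -0.23 (adjusted p = 0.167 in limma, 0.125 with the block), and Gars one of 0.25 (adjusted p = 0.175 in limma, 0.059 with the block). Groups did not overlap for 4 genes higher in si-circRtn4 (Wars, Eprs, Hars and Pars2) and 3 lower (Lars2, Aars2 and Hars2), against 16.2% of all genes tested higher and 15.5% lower. For the cytosolic genes this was 3 of 21 higher and 0 lower, and for the mitochondrial genes 1 of 17 higher and 3 lower. At an unadjusted p under 0.05 in limma, 4 cytosolic genes were higher and 1 lower, and 0 mitochondrial genes were higher and 2 lower. Over all genes tested the same threshold took 13.1% higher and 12.8% lower.

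Read by same-numbered pairs, 12 of the 21 cytosolic genes were higher with si-circRtn4 in all 3 pairs, namely Gars, Sars, Wars, Aars, Kars, Lars, Mars, Eprs, Yars, Rars, Hars and Cars, and 2 were lower in all 3 (Nars and Qars). Of the 17 mitochondrial genes, 4 were higher in all pairs, Vars2, Pars2 and Wars2 among them, and 5 lower (Lars2, Yars2, Aars2, Iars2 and Hars2). Over all genes tested, 28.4% were higher and 28.3% lower in all 3 pairs. The cytosolic genes are not independent of each other, and their levels moved together between libraries. Replicate 1 was the lowest library of its group in both groups for 16 of the 21 cytosolic genes, against 22.9% of all genes tested, and replicate 3 was the highest in both for 11 of them. For the mitochondrial genes the replicate 1 count was 7 of 17.

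Summed over the 21 cytosolic genes, the level was 1146, 1225 and 1377 FPKM in controls and 1262, 1423 and 1434 FPKM after knockdown. Each knockdown sum was above the control sum of the same number, and the groups overlapped. The 17 mitochondrial genes summed to 230, 245 and 249.9 FPKM with si-NC and to 216, 234 and 206 FPKM with si-circRtn4, again with overlap. Without Lars2 these sums were 105 to 112 FPKM and 99.8 to 112 FPKM.

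The multisynthetase complex was set beside the other cytosolic enzymes, and whether they differ was not tested. Of its 8 synthetase genes (Eprs, Iars, Lars, Mars, Qars, Rars, Kars and Dars), 7 had a log2 fold change above 0 and 1 below, with a median of 0.10 and 0 called. In limma at an unadjusted p under 0.05, 1 was higher and 1 lower, beside 13.1% of all genes tested higher and 12.8% lower. The blocked fit called Eprs higher and Qars lower. The 13 cytosolic genes outside the complex had the same median to the printed digits, 0.10, with 1 called higher and, with the block, 3. Over all genes tested, 4.36% were called higher and 4.82% lower, and with the block 9.29% and 9.75%. Of the scaffold genes, Aimp1 had a log2 fold change of 0.18, Eef1e1 of 0.11 and Aimp2 of 0.048, and none was called in either fit.

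Split by structural family, class I had 10 cytosolic genes with a median log2 fold change of 0.11 and 9 mitochondrial genes with a median of 0.015. Eprs (0.34), which joins a class I and a class II enzyme, was counted in class I only. Class II had 11 cytosolic genes with a median of 0.064 and 8 mitochondrial genes with a median of 0.0044. Wars was the called gene of class I and Aars2 that of class II, or 5.26% of each class, beside 9.19% of all genes tested. The genes that serve both compartments, Gars and Kars (log2 fold change 0.10), were not called.

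Enzymes for the same amino acid in the 2 compartments can be set against each other as a ratio of FPKM. There were 18 such pairs, with Eprs set against both Ears2 and Pars2, and both phenylalanine subunits against Fars2. The cytosolic gene was the higher in every library for 17 of the 18 pairs, from a median ratio of 2.92 for Rars over Rars2 to 55.4 for Nars over Nars2. The order of the pairs depended on the length used. With mean levels set on the length of the longest-coding transcript instead, the same 17 pairs ran from 1.94 for Cars over Cars2 to 76.8 for Wars over Wars2, with Rars over Rars2 at 3.05 and Nars over Nars2 at 28.8, and Lars over Lars2 was at 0.18. Leucine was the exception, with Lars over Lars2 at 0.42, 0.43 and 0.49 in controls and 0.57, 0.58 and 0.68 after knockdown. Its ratio was higher in every knockdown library than in any control library, with Lars (log2 fold change 0.22) and Lars2 (-0.23) on opposite sides of 0 and neither called.

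The ratio was higher in si-circRtn4 without overlap for 7 of the 18 pairs, those for alanine, histidine, isoleucine, leucine, arginine, serine and tryptophan, and lower without overlap for none. No share of such ratios over all genes was computed to set beside this count. The 18 ratios are not independent, because the cytosolic levels moved together between libraries and Eprs and Fars2 are used repeatedly. The largest shift was for alanine. Aars over Aars2 was 6.43, 5.50 and 6.55 with si-NC and 9.93, 8.83 and 8.87 with si-circRtn4, a difference of 0.58 in the mean log2 ratio. For histidine the ratio of Hars to Hars2 went from 2.76, 3.69 and 4.26 to 4.38, 5.41 and 4.85, a difference of 0.47. In the two-sided exact permutation test, the 7 pairs reached p = 0.1, the smallest value that 3 libraries against 3 allow, and an adjusted p of 0.26 over the 18 pairs, so none passed.

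**Figure D4:**
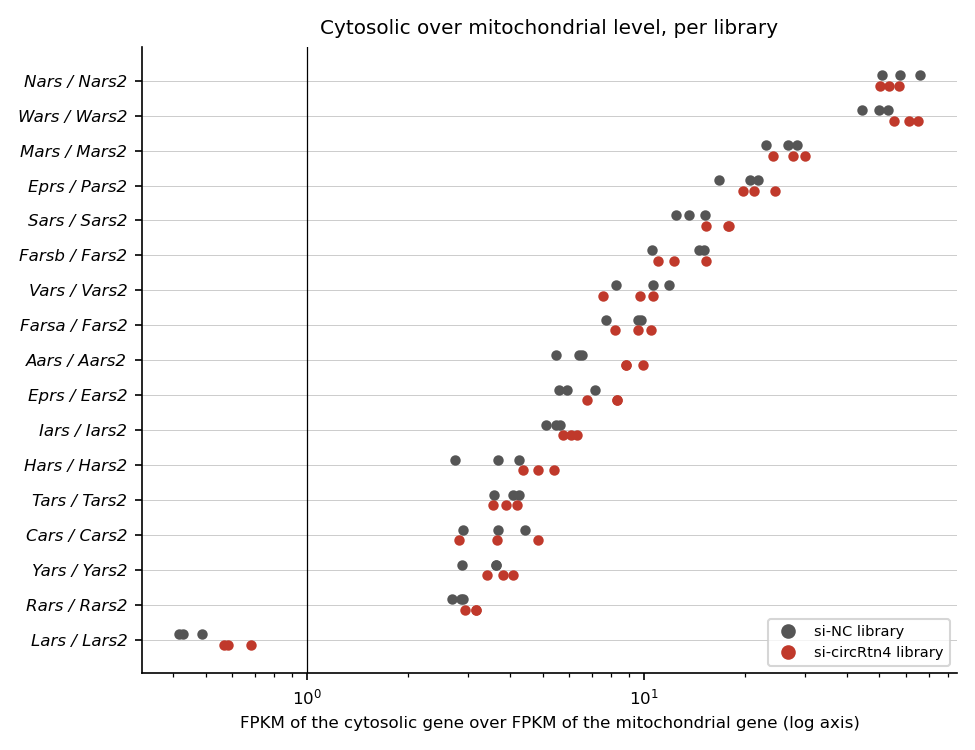
Ratio of the FPKM of the cytosolic gene to that of the mitochondrial gene for the same amino acid in each library, on a log axis, with a line at 1. Grey points are si-NC and red points si-circRtn4 libraries; only the leucine pair lies below 1, and the red points lie above all grey ones for 7 pairs.

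Other genes of tRNA charging and use were examined from fixed lists. Beside their counts, 4.36% of all genes tested were called higher and 4.82% lower in limma. Whether any list differed from these shares was not tested. The selenocysteine route had 1 of 7 called, Sephs2, the selenophosphate synthetase, with a log2 fold change of 0.31 (adjusted p = 0.035 in limma). In tRNA export and end processing 1 of 18 was called, Rpp25, a protein subunit of RNase P and RNase MRP. Rpp25 was lower, at 37.6, 38.1 and 37.1 FPKM with si-NC against 24.7, 23.1 and 24.7 FPKM with si-circRtn4, a log2 fold change of -0.62 (adjusted p = 0.0031 in limma).

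Other lists held 0 calls in limma without the block. These were the 4 genes of the mitochondrial amidotransferase and formylation of initiator tRNA, the 7 elongation factor genes, and the 20 genes of RNA polymerase III and its factors, which transcribe tRNA genes. At an unadjusted p under 0.05 the amidotransferase list had none, the elongation factors 1 higher and 1 lower, and the polymerase III list 3 higher, beside the 13.1% higher and 12.8% lower of all genes at that threshold. With the block, Eef1a2 and Polr3d were called higher and Tufm, the mitochondrial elongation factor that carries charged tRNA, lower, with a log2 fold change of -0.27. Of the 22 mitochondrial tRNA genes themselves, 16 were tested and 0 called, with 2 lower at an unadjusted p under 0.05. Their median log2 fold change was -0.39, with 14 below 0 and 2 above, and single changes ran from -0.90 to 0.85. These genes are short, so levels near the filter of 1 FPKM can rest on few reads per library. Their read counts are not given here, and whether they fell as a group was not tested. The block called mt-Tp and mt-Ty lower, beside 9.75% of all genes tested called lower with it.

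The list of uncharged tRNA sensing and ATF4 targets had the most calls. Of its 21 genes tested, 6 were called higher with the block, against 9.29% of all genes tested higher and 9.75% lower. Without it, limma called 5 higher (23.8%) and 0 lower, against 4.36% and 4.82% of all genes tested. Those with the largest change were Atf3, a stress transcription factor, with a log2 fold change of 0.89, Cth, the cystathionine gamma-lyase of cysteine synthesis, with 0.82, and Cebpb, a bZIP factor that can pair with ATF4, with 0.74. Atf3 was at 10.6, 12.1 and 12.9 FPKM in controls and at 20.6, 28.7 and 19.7 FPKM after knockdown, without overlap. Atf4 itself (log2 fold change 0.18), Asns (0.13) and Eif2ak4 (0.040) were not called. The median of this list was 0.23, against 0.10 for the cytosolic and 0.0072 for the mitochondrial synthetases. The list was drawn up with earlier results of these data known, so its count is not independent evidence of its direction.

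**Figure D5:**
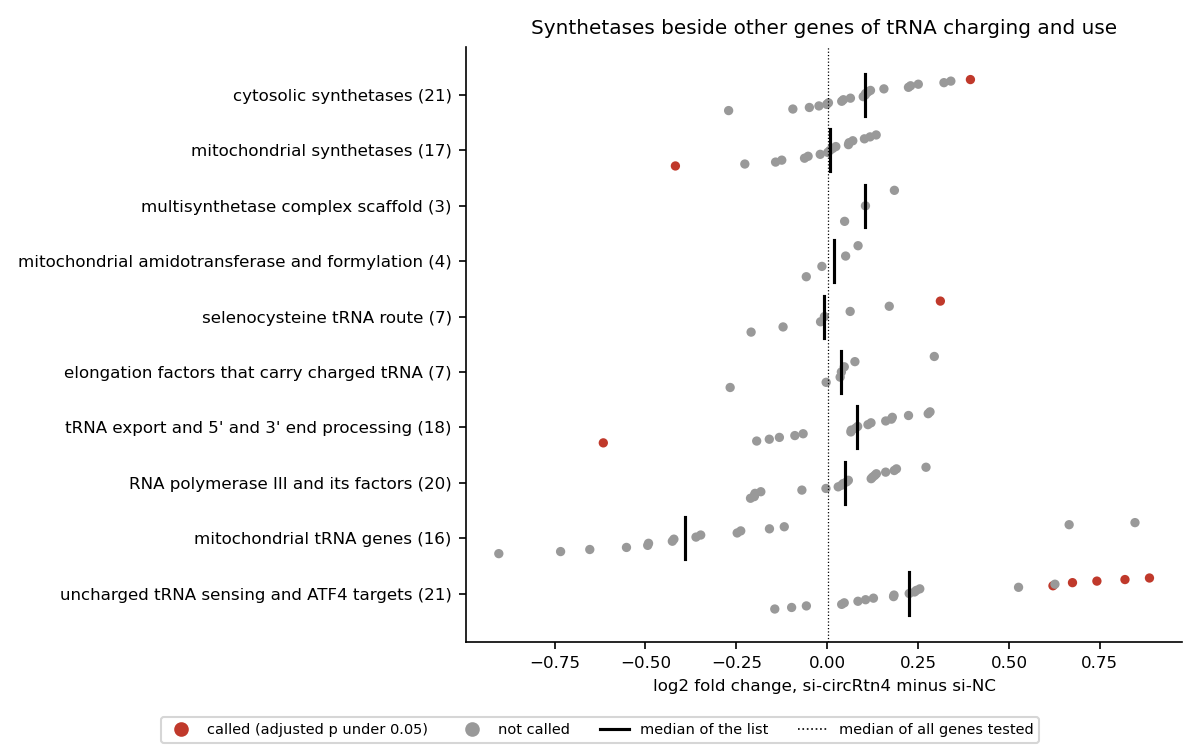
Log2 fold changes (si-circRtn4 minus si-NC, log2(FPKM + 1) scale) of the synthetases and of other gene lists, with the number tested in brackets. Each point is a gene, red if called, thick bars are list medians, and the dotted line is the median of all genes tested; the ATF4 target list holds 5 red points, and the cytosolic and mitochondrial synthetases hold 1 each.

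Promoters were searched for the composite element bound by ATF4 with C/EBP factors, because it is the known ATF4 element of synthetase genes. RefSeq windows of 250 bases before to 50 after the start (GRCm38.p6) were found for 28 of the 38 genes, 14 cytosolic and 14 mitochondrial, and not for 10 genes, which include Cars, Hars, Hars2, Lars, Nars, Pars2, Rars, Vars and Wars. On either strand, TGATGNAAT was present in Aars, Gars and Iars and in 0 of the 14 mitochondrial genes, against 1.08% of all 27025 genes with a window. The shorter TGATGNAA, which lies within the longer motif, added Tars and Yars, against 4.51% of all genes with a window. The windows around 4 of these matches are shown with the motif in capitals, each 5′ to 3′ on the strand of the gene; in all but Yars the capitals are the reverse complement of the motif as written.
Gars: tggctgcgctATTTCATCAtgcaccgggc
Iars: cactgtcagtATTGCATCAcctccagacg
Tars: aggagtcccgTTGCATCAgctggttagc
Yars: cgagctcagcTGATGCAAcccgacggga
They lie at chr6:55037960-55037988 (plus strand), chr13:49682126-49682154 (plus), chr15:11399656-11399683 (minus) and chr4:129189896-129189923 (plus). None of the 5 genes was called, with log2 fold changes of 0.25 for Gars, 0.12 for Aars, 0.10 for Yars, 0.044 for Tars and 0.0034 for Iars. The E-box CACGTG was found in Aars, Farsb, Iars and Tars and in the mitochondrial Ears2, against 8.09% of all genes with a window. A match is a description of the letters and does not show binding.

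The study examined miR-24-3p together with circRtn4, so 3′ UTRs were searched for the 7-base site of this miRNA and for that of the siRNA's own guide strand. The guide is assumed to be the reverse complement of the strand listed for the siRNA. Both are shown 5′ to 3′ with the seed, bases 2 to 8, in capitals, the miRNA from RefSeq and the guide in DNA letters.
miR-24-3p: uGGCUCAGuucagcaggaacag
si-circRtn4 guide: aAAAGGGTctcatctgaag
The miR-24-3p site, CTGAGCC, lay in the 3′ UTR of 6 of the 38 genes (15.8%), against 19.6% of the 10694 genes tested that have an annotated 3′ UTR, so it was not more frequent among synthetases. The 6 were Aars with 3 sites, Tars, Wars, Aars2, Pars2 and Wars2. The Aars sites at chr8:111056506-111056512 and chr8:111056926-111056932 lie in the annotated end of Aars that overlaps Exosc6, and the site at chr8:111055405-111055411 lies outside it. Both genes called without the block carried it, and their sites are shown with the 7 bases in capitals.
Wars: cacgaggtCTGAGCCagcctggt
Aars2: ccaggtatCTGAGCCaaagaagg
The 7 bases lie at chr12:108860858-108860864 (minus strand) in Wars and at chr17:45520567-45520573 (plus strand) in Aars2, and in each an A follows the site, which makes it an 8mer. These genes moved in opposite directions, Wars up and Aars2 down. The guide's site, ACCCTTT, was in Sars, Ears2, Mars2 and Nars2, or 10.5% of the 38 against 12.5% of genes. Of these, Sars was called higher with the block and the other 3 had log2 fold changes from 0.0072 to 0.024.

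Reads shared with other genes could touch some of the levels. Of the 38 genes, 21 overlap another listed gene and 12 a protein-coding gene. Stretches of 31 bases found also in transcripts of another gene made up a median of 1.67% of a synthetase's sequence, over 10% in 4 genes, and none in 8, which include Wars, Aars2 and Gars. The largest share was in Iars2, at 23.6%, mostly with Rab3gap2 on the opposite strand. Iars had 14.7%, mostly with Gm4849, and Aars 14.4%, mostly with Exosc6, which lies within the annotated end of Aars and is listed at 0 FPKM in all 6 libraries. Mars overlaps Ddit3, an ATF4 target, by 68 bases on the opposite strand, and Ddit3 was at 37.6 to 52.9 FPKM with si-NC and at 56.7 to 75.4 FPKM with si-circRtn4. Mars had a log2 fold change of 0.11 and was not called. Lars2 shared 0.923% of its stretches, 103 in number, with 38 of them found in Gm47414 on the same strand. A short shared stretch can still weigh on a level where the other RNA is abundant. The part of these overlaps and shared stretches in the values, the high level of Lars2 included, was not tested.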

How the data were processed

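Groups and replicate numbers came from sample titles that equal the gene table's column names. The deposited values were FPKM, computed by the authors, beside gene lengths and coordinates; the quantifier was not given in the sources used here. The submitters' processing notes name Bowtie 0.12.2 and mouse builds older than GRCm38, while coordinates equalled those of GENCODE M21 (GRCm38) for 98.1% of the genes listed and for 35 of the 38 synthetase genes. Another 6 value columns match no sample of the series and were left out.

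The product of FPKM and gene length was a whole multiple of 1 step for 100% of values (tolerance 0.01), which gave 13541198 to 15122063 reads per library. Log2(FPKM + 1) was tested with limma 3.58.1 (lmFit, eBayes with trend) in R 4.3.3 over 12749 genes (mean level of 1 FPKM or more over the 6 libraries), two-sided, adjusted by Benjamini-Hochberg. Fold changes are on this scale, which understates changes of low genes. The reported fit has no block. A fit with the replicate number as a block was set beside it, because same-numbered libraries' deviations from group means correlated at 0.331, 0.190 and 0.226. Those of different numbers correlated at 0.009 at most. Deviations sum to 0 within a group, so these low values follow in part from the same-numbered ones and are not separate evidence. The labels do not say what a number marks. The alternatives were a pseudocount of 0.1, no filter, TPM with and without Gm23935, quantile normalization, limma-voom on recovered reads, the replicate block and leaving out each library. Single ratios were tested by exact permutation, without pairing of libraries. The fit was tested on simulated data.

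Values of each library were given for genes called in either fit, for the highest and lowest of each compartment and for those nearest the filter, and of other lists at most 3 called genes were named. A few items are not reported here, and counts include them. The synthetase genes and the lists were chosen with earlier results of these data known. Python 3.11.15, numpy 2.4.6, pandas 2.3.3, scipy 1.17.1 and matplotlib 3.10.9 were used.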

Additional observations from a re-analysis of the deposited data

How the results depend on the processing

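The cytosolic median log2 fold change was above 0 under every alternative, and from 0.030 to 0.16 on leaving out 1 library. The mitochondrial median was 0.091 with TPM, where the median of all genes was 0.090, and from -0.062 to 0.041 on leaving out 1 library. Cytosolic genes called higher numbered 0 without the filter, 3 with TPM, 2 with TPM without Gm23935, 2 with quantile normalization, 2 with limma-voom and 4 with the replicate block, which also called 1 lower. The replicate block changed no call of the synthetases beyond the 4 it added (Eprs, Hars, Sars and Qars). Mitochondrial genes called lower numbered 0 without the filter, with TPM and with quantile normalization. Without 1 library, 0 to 2 cytosolic genes were called higher and 0 to 0 mitochondrial genes lower.

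Over all genes, 210 were called higher and 261 lower without the filter, 972 and 393 with TPM, 902 higher with limma-voom, and 1185 and 1243 with the replicate block, against 556 and 615 in the reported fit. Leaving out 1 library gave 163 to 407 higher and 217 to 419 lower, fewest in both directions without si-NC replicate 2. Each of these fits has fewer samples. Tarsl2, near 0 in the reported fit, had a log2 fold change of 0.088 with TPM, 0.020 with TPM without Gm23935 and 0.023 with limma-voom. The median of all genes tested was 0.090, 0.023 and 0.025 in the same fits. Without 1 library Tarsl2 ran from -0.072 to 0.047, and the cause was not tested. Counting Tarsl2 as mitochondrial, a choice made after seeing the data, changed no count of calls.

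The lowest synthetase genes rest on 80 to 155 reads per library. The standard errors of their log2 fold changes, 0.12 for Wars2 and 0.11 for Pars2, lay within the range over the 38 genes, 0.076 to 0.16. These depend on the pseudocount of 1 FPKM, which is close to the levels of both genes. They were 0.18 for Wars2 and 0.16 for Pars2 with a pseudocount of 0.1, and 0.15 and 0.18 with limma-voom.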
